A study of Mus musculus with 6 samples.

Results

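The START domain lipid transfer proteins are described here by the transcripts of 10 genes, Star, Stard3, Stard4, Stard5, Stard6, Stard7, Stard8, Stard9, Stard10 and Stard13, of 19938 genes that had a probe set with a single gene symbol. They were chosen by name around Stard5, which had been picked for its rise in the knockdown, so the Stard5 values are given as a description with no test. The arrays were made from mouse N2A cells, an established neuroblastoma line, transfected transiently with 1.5 µg of plasmid and harvested for RNA 3 days later. The 3 control arrays came from cells given a non-targeting vector and the 3 Pax6 knockdown arrays from cells given a vector that expresses a short hairpin RNA (shRNA) against Pax6, a transcription factor of eye, brain and pancreas development. Both groups carried the same kind of plasmid, in which a U6 promoter drives the hairpin and a CMV promoter drives eGFP. The knockdown rests on 1 Pax6 hairpin vector, and transfected and untransfected cells were measured together.

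The START domain is a fold with a deep hydrophobic pocket that holds a single lipid molecule and shields it from water. Cells use these proteins to move cholesterol, phosphatidylcholine or ceramide between membranes without vesicles, and some members couple the domain to an enzyme or a motor. In steroid-producing cells Star is known for bringing cholesterol into mitochondria, while most other members act in many tissues. The comparison asks whether paralogs of Stard5 moved when Pax6 was reduced.

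All values are deposited log2 summaries per probe set, so a difference of 1 on this scale is a doubling of signal, and differences are knockdown minus control. The targeted gene, Pax6, was lower in every knockdown array, with a log2 difference of -0.38 (SE 0.071, limma adjusted p = 0.0382, n = 3 per group). Testing was limited to genes whose signal passed the array's own probe set median on 3 or more of the 6 arrays, and a call is a false discovery rate (FDR) under 10% over all tested genes. When any 1 of control replicates 1, 2 and 3 or knockdown replicate 3 was left out, Pax6 lost its call (adjusted p = 0.120 to 0.180), as it did under a filter on low variance (0.231). Of 11424 tested genes 6.67% were called, 2.79% higher and 3.88% lower. All 9 measured markers of neuronal and noradrenergic identity were tested, of which 8 lay above the median on every array, and 2, Dbh (-1.08) and Isl1 (-0.35), were called lower. The list split in direction, with 4 differences above 0 (Phox2a 0.05, Stmn2 0.03, Tubb3 0.12 and Elavl4 0.19, none called) and 5 below 0. Of 10 markers of other cells 6 lay below it on every array, and 4 (Pecam1, Col1a1, Col1a2 and Col3a1) above it. The mean log2 level of the neuronal and noradrenergic markers was 10.85 to 10.92 in the control arrays and 10.65 to 10.79 in the knockdown arrays, that of the other cells was 7.31 to 7.37 and 7.24 to 7.44, and their part in the results below was not tested. In bulk RNA, fewer cells of a kind and less RNA per cell cannot be told apart.

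Stard5 and Pctp had the highest log2 differences above 0 among the tested START domain genes, and the stretches before their annotated starts are shown for that reason. Both are from RefSeq (GRCm38.p6), 250 bases long, 5′ to 3′ on the strand of the gene. Capitals mark CCAAT boxes (CCAAT on either strand) and GC boxes (GGGCGG on either strand), which do not overlap here. The Stard5 stretch is chr7:83631767-83632016 (plus strand), and the Pctp stretch is chr11:90002895-90003144 (minus strand).
Stard5: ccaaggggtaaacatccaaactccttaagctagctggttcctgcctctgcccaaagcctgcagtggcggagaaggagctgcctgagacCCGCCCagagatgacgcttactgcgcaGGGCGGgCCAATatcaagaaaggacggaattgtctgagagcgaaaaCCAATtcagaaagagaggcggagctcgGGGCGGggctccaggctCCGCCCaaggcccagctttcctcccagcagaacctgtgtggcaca
Pctp: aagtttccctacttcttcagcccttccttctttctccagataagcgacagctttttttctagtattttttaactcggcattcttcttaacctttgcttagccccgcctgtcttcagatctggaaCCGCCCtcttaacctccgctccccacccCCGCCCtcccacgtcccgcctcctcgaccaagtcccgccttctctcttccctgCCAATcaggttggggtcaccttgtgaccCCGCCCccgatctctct
The Stard5 stretch held 2 CCAAT boxes and 4 GC boxes, and the Pctp stretch held 1 and 3.

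A promoter window was found for 7 of the 10 members. With the other START domain genes Pctp, Cert1, Dlc1, Acot11 and Acot12 added, it was found for 11 of 15 genes. No window was found for Star, Stard4, Stard6 or Dlc1, so their promoters were not searched. The 11 genes had 12 windows of 300 bases that end 50 bases after the start. CCAAT boxes were in 8 of these windows, against 37.4% of 32851 windows of the same length, and GC boxes in 9, against 35.7%. These boxes were chosen after the promoters were read, so the counts beside these shares are a description and not a test. None of the 12 windows held the core bound by ATF4 heterodimers (TGATGNAA), the unfolded protein response element (TGACGTGG), the ER stress response element (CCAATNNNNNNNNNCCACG) or the sterol regulatory element core (TCACCCCAC) on either strand. These letters were in 3.97%, 0.676%, 0.119% and 0.551% of all windows. No match says only that these letters are not in these windows, and a match is a description of sequence.

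Stard5 codes for a small cytosolic carrier that binds cholesterol, and its transcript is known to rise in mouse cells under endoplasmic reticulum stress. The control arrays read 11.67, 11.52 and 11.55 and the knockdown arrays 12.41, 12.20 and 12.19, in log2 units. Every knockdown array lay above every control array, and the gap between the groups was wider than the range within either. The control mean was 11.58 ± 0.077 (SD, n = 3), against 12.27 ± 0.13 (SD, n = 3) with the Pax6 vector, a difference of 0.69, or 1.61-fold. Between arrays of the same replicate number the difference was 0.75, 0.68 and 0.64. When each array was left out in turn it ranged from 0.61 to 0.73.

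Of the other 9 members 8 were tested, and 0 were called by limma at 10% FDR, against 6.67% of all tested genes. This fit did not pair the arrays by replicate number. With the replicate number as a block, 1 of the 8 (Stard3) was called, against 17.9% of all tested genes. Unadjusted and without the block, 2 of the 8 (Stard3 and Stard13) had a p under 0.05, against 18.8% of all tested genes. The groups did not overlap for 2 of the 8, Stard3 and Stard7, against 25.6% of all tested genes. The median absolute log2 difference of the 8 was 0.086, as in all tested genes (0.086), and the largest was 0.28 in size. The differences were above 0 for 5 and below 0 for 3, with a median of 0.045 against 0.017 in all tested genes.

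**Figure D1:**
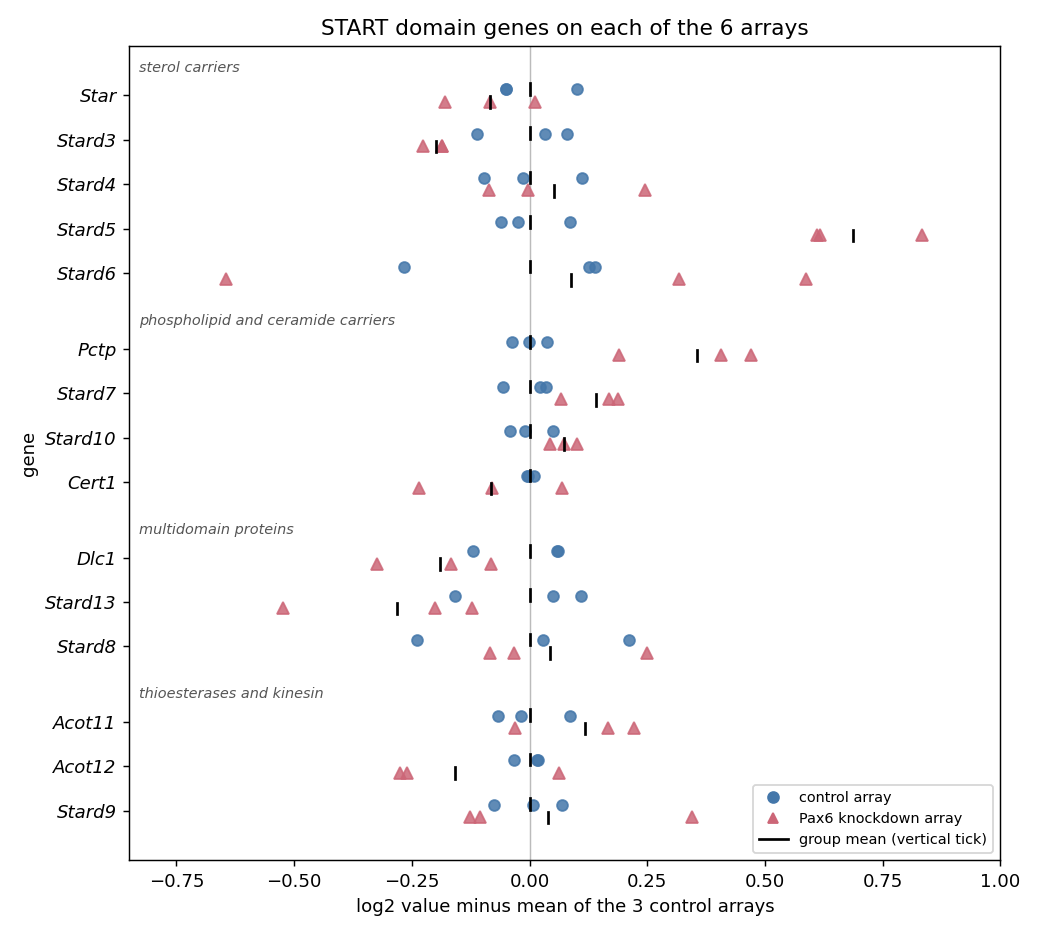
Deviation of each array's log2 signal from the control mean (horizontal axis) for 15 START domain genes grouped by role (vertical axis), with circles for control arrays, triangles for Pax6 knockdown arrays and vertical ticks for group means. The triangles of Stard5, chosen for its rise, sit farthest from their circles (mean 0.69). Those of Pctp, Stard7 and Stard3 do not overlap theirs, and those of Stard6 spread most.

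Stard3 is the sterol carrier of late endosomes, which its protein tethers to the endoplasmic reticulum. On the log2 scale it stood at 9.95, 10.00 and 9.81 with the non-targeting vector and at 9.70, 9.74 and 9.74 with the Pax6 vector. The knockdown arrays were all lower and close together. The difference was -0.20 (SE 0.068, 95% interval -0.36 to -0.042), and limma gave adjusted p = 0.163, which misses 10% FDR. With the replicate number as a block it was called lower (SE 0.062, adjusted p = 0.0857), a fit that called 17.9% of all tested genes, 8.96% higher and 8.91% lower. The differences within replicate numbers were -0.26, -0.26 and -0.07. Every alternative kept the direction, with adjusted p values between 0.0574 (array weights) and 0.665.

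Stard4, a cytosolic sterol carrier whose transcript is known to follow sterol-responsive control, is the closest in kind to Stard5. Log2 signal was 11.05, 10.85 and 10.93 for control replicates 1 to 3, against 11.19, 10.86 and 10.94 for the knockdown. Arrays of replicate 1 were the highest of each group and the groups overlapped. The difference was 0.05 (95% interval -0.18 to 0.28, limma adjusted p = 0.846). Without knockdown replicate 1 it was -0.045.

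Star, the mitochondrial cholesterol importer of steroid-producing cells, lay just above the probe set median on every array. The control arrays read 7.78, 7.78 and 7.93 and the knockdown arrays 7.74, 7.65 and 7.84, in log2 units. The groups overlapped, with a difference of -0.08 (95% interval -0.26 to 0.090, limma adjusted p = 0.634). Of 5 markers of steroid-producing cells 4, among them Cyp11a1, the enzyme that cleaves the cholesterol side chain, lay below the median on all 6 arrays. The fifth, the nuclear receptor gene Nr5a1, was above it on 4 arrays.

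Stard6, known in mouse mainly from male germ cells, varied most within groups. On the log2 scale it stood at 7.75, 7.35 and 7.74 with the non-targeting vector and at 8.20, 6.97 and 7.93 with the Pax6 vector. Replicate 2 was the lowest array of both groups, and the knockdown arrays reached both above and below all control arrays. The difference was 0.09 (SE 0.29, 95% interval -0.58 to 0.75, limma adjusted p = 0.918). With the replicate block the SE was 0.14 and the adjusted p was 0.735. Without knockdown replicate 2 the difference was 0.45 (adjusted p = 0.105), and without control replicate 2, knockdown replicate 1 or knockdown replicate 3 it was -0.046, -0.16 and -0.029. A further Stard6 probe set gave 7.66, 7.29 and 7.57 for controls against 8.0, 6.92 and 7.70 for knockdowns (difference 0.03). Both probe sets put the 6 arrays in the same order.

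The carriers of phosphatidylcholine and ceramide were measured by 4 genes, of which the members are Stard7 and Stard10. Stard7, which brings phosphatidylcholine to mitochondria, measured 10.33, 10.42 and 10.41 (log2) in controls 1 to 3 and 10.56, 10.46 and 10.58 in their knockdown counterparts. All knockdown arrays lay above the control arrays. The difference was 0.14 (SE 0.063, 95% interval -0.0042 to 0.29, limma adjusted p = 0.281), with 0.23, 0.03 and 0.17 within replicate numbers. It was not called with the replicate block either (adjusted p = 0.175), but it was with array weights (0.0227 as the adjusted p), a fit that called 37.1% of all tested genes.

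Stard10 codes for a carrier of phosphatidylcholine and phosphatidylethanolamine. Log2 signal was 11.16, 11.26 and 11.19 for control replicates 1 to 3, against 11.25, 11.31 and 11.28 for the knockdown. The groups overlapped only by the control array of replicate 2, and the difference was 0.07 (SE 0.058, 95% interval -0.061 to 0.21, limma adjusted p = 0.580). Within replicate numbers it was 0.08, 0.05 and 0.08.

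Pctp, the phosphatidylcholine transfer protein gene, is not among the 10 members but has the same domain. The control arrays read 9.15, 9.07 and 9.11 and the knockdown arrays 9.58, 9.30 and 9.51, in log2 units. All knockdown arrays lay above the control arrays. It rose by 0.36 (SE 0.082, 95% interval 0.17 to 0.55, limma adjusted p = 0.0651). Of the 4 tested START domain genes outside the members it was the only 1 called (25%, against 6.67% of all tested genes). With the replicate block, which called 17.9% of all tested genes, its adjusted p was 0.0197. Leaving out control replicate 1, 2 or 3 ended the call (adjusted p = 0.161, 0.245 and 0.195), as did leaving out knockdown replicate 1 or 3 (0.118 and 0.233). It also ended under all 3 other filters (0.103 to 0.295). Over all alternatives the adjusted p ran from 0.00120, with array weights (37.1% of all tested genes called), to 0.295. The difference stayed between 0.30 and 0.44. Cert1, which carries ceramide from the endoplasmic reticulum to the Golgi, differed by -0.08 (95% interval -0.27 to 0.11, adjusted p = 0.686).

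**Figure D2:**
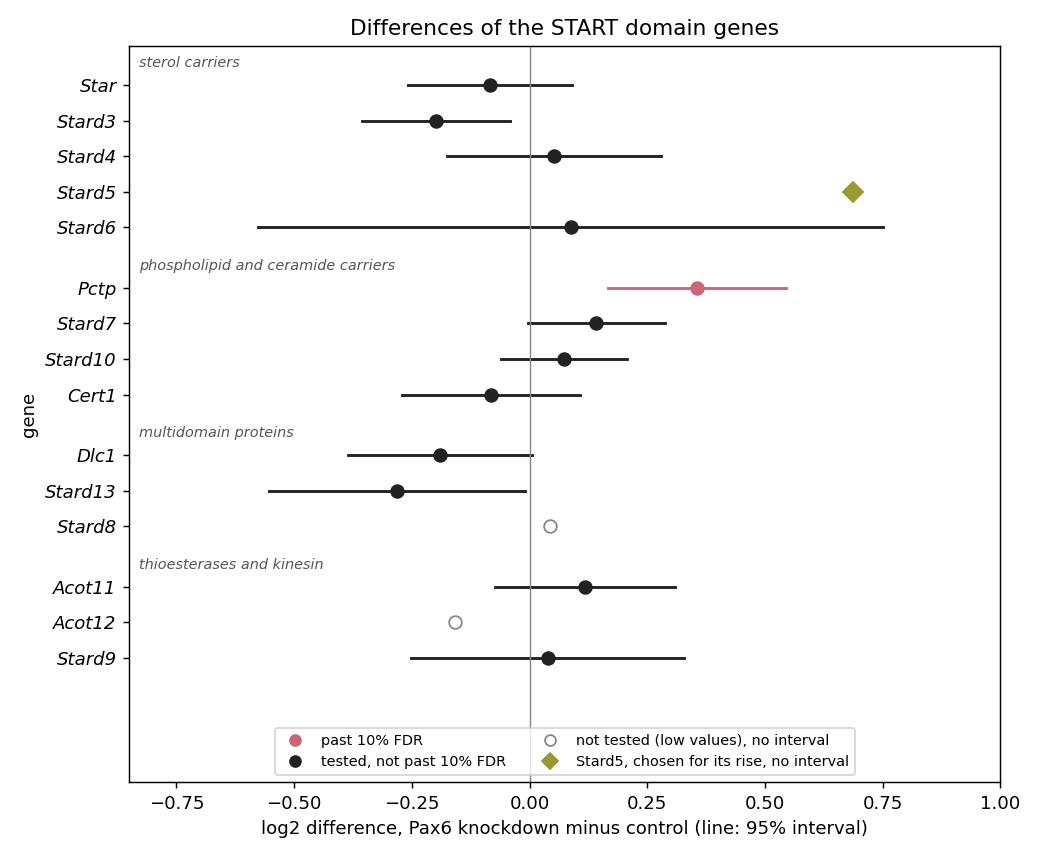
Log2 difference, Pax6 knockdown minus control (horizontal axis), of 15 START domain genes (vertical axis), with lines for the 95% interval of the limma fit. Of the genes drawn with an interval, those of Pctp (0.17 to 0.55), Stard3 and Stard13 lie to 1 side of 0, and only Pctp passed 10% FDR.

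Stard13, Stard8 and Dlc1 code for proteins that join a START domain to other domains and act at the cytoskeleton and cell adhesions. Stard13 measured 8.80, 8.74 and 8.53 (log2) in controls 1 to 3, while knockdowns 1 to 3 measured 8.57, 8.17 and 8.49. Knockdown replicate 2 was the lowest array by a wide margin, and the groups overlapped through knockdown replicate 1 and control replicate 3. The difference was -0.28 (SE 0.12, 95% interval -0.55 to -0.010), and limma gave adjusted p = 0.25, or 0.110 as the adjusted p with the replicate block. Without knockdown replicate 2 it was -0.16. Dlc1 differed by -0.19 (95% interval -0.39 to 0.0052, adjusted p = 0.279). Knockdown replicate 2 was the lowest array for both Stard13 and Dlc1. Stard8 lay above the probe set median on 0 of the 6 arrays and was not tested. Its signals of 7.05, 6.6 and 6.87 in controls overlapped those of 6.76, 7.09 and 6.81 in knockdowns. Fitted without the filter, its difference of 0.04 had a 95% interval of -0.26 to 0.35 (limma adjusted p = 0.985).

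Stard9 codes for a kinesin motor with a START domain. On the log2 scale it stood at 8.25, 8.19 and 8.11 with the non-targeting vector and at 8.53, 8.08 and 8.06 with the Pax6 vector. Knockdown replicate 1 was above all other arrays while the other two were below the controls. The difference was 0.04 (SE 0.13, 95% interval -0.25 to 0.33, limma adjusted p = 0.917), and without knockdown replicate 1 it was -0.12. The other 2 Stard9 probe sets differed by 0.10 and 0.07. The acyl-CoA thioesterase genes with a START domain were Acot11, which differed by 0.12 (95% interval -0.072 to 0.31, adjusted p = 0.511), and Acot12, which was below the median on every array and was not tested.

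The pattern of Stard5 over the 6 arrays was closest to those of Srxn1, Car6, Ttc12, Cdsn and Ppp1r15a. The measure was the root mean square distance between values centred on each gene's mean, which was 0.064, 0.069, 0.089, 0.089 and 0.094 log2 units. Such genes were bound to be among those that rose, and each of the 5 was called higher, by 0.66, 0.74, 0.54, 0.67 and 0.53. Ttc12 and Ppp1r15a needed control replicate 2 and knockdown replicate 3 for their calls (adjusted p at most 0.112 and 0.115), while Srxn1, Car6 and Cdsn kept theirs under all 15 alternatives. Among the members the least distant was Stard7, at 0.29, which ranked only 1811 among the tested genes. The most distant was Stard13, at 0.50 (rank 10927).

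**Figure D3:**
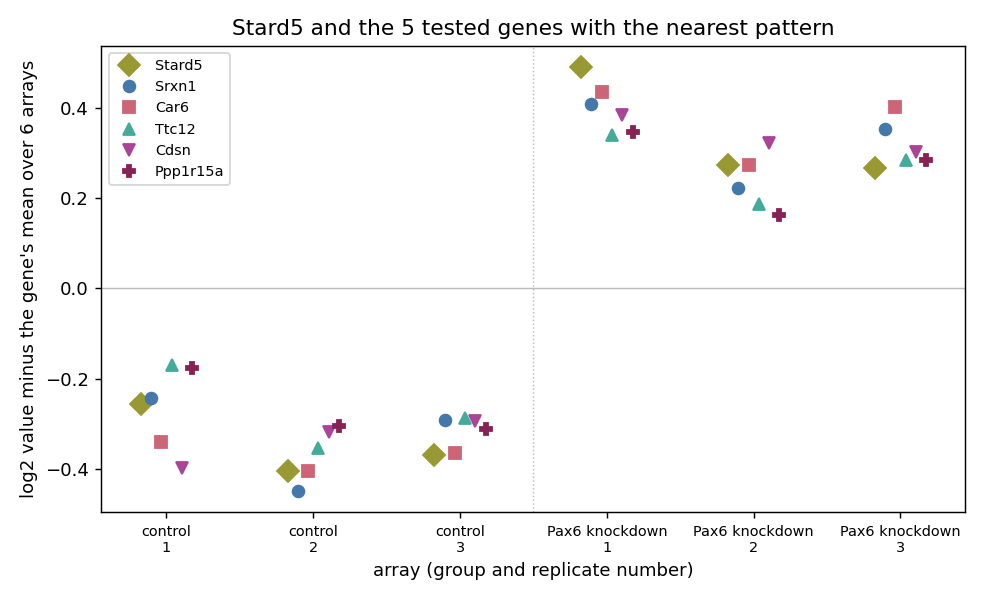
Log2 value minus the gene's own mean over the 6 arrays (vertical axis) on each array (horizontal axis) for Stard5 (diamonds) and the 5 tested genes with the smallest root mean square distance to it. All 6 genes lie below 0 on the control arrays and above 0 on the knockdown arrays.

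The 3 genes on each side of Stard5 on chromosome 7 that had a probe set had log2 differences between -0.04 and 0.09. Tmc3, a channel-like protein gene, and Il16, a cytokine gene, are its nearest measured neighbours, with log2 differences of 0.04 and -0.03. They lay below the median of all probe sets on every array, as did Gm10610, A530021J07Rik and Cfap161. Tlnrd1, the single tested neighbour, differed by 0.09 (95% interval -0.083 to 0.27, limma adjusted p = 0.591).

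Lipid transfer proteins of other families were listed together with membrane tethers such as Vapa and the transporters Abca1 and Abcg1. This list gave 3 falls and 0 rises among 36 tested genes (8.33%, against 6.67% of all tested genes). Its median difference was 0.066, against 0.017 in all tested genes. Esyt2 and Esyt1, the extended synaptotagmins that tether the endoplasmic reticulum to the plasma membrane and move glycerolipids, fell by 0.54 (SE 0.086, limma adjusted p = 0.0242) and 0.37 (SE 0.074, adjusted p = 0.0460). Esyt2 signal spanned 10.84 to 10.96 in controls and 10.25 to 10.53 in knockdowns, with a clear gap between the groups. Abca1, the cholesterol exporter, fell by 0.28 (SE 0.072, adjusted p = 0.0836). The call of Esyt2 ended when control replicate 1, control replicate 2 or knockdown replicate 3 was dropped (adjusted p = 0.101 to 0.135). That of Esyt1 needed control replicates 2 and 3 and knockdown replicate 3 (0.164 to 0.195 without one of them), and it also ended with no filter (0.110) and with the low-variance filter (0.261). That of Abca1 needed every array but knockdown replicate 1 (0.102 to 0.278), and it ended under all 3 other filters (0.138 to 0.484). With the replicate block there were 4 rises and 4 falls, in a fit that called 17.9% of all tested genes, and the rises were the oxysterol-binding protein relatives Osbpl1a (0.25), Osbpl2 (0.28) and Osbpl6 (0.19) and the reticulum tether Vapa (0.17). The fall beyond those 3 was that of C2cd2l (-0.25), a phosphatidylinositol carrier gene.

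Of genes that work with Star in steroid synthesis and cholesterol import, 15 were on the array and 6 were tested. The untested genes lay below the median on every array. Limma called 0 of the 6, against 6.67% of all tested genes. Unadjusted, 0 had a p under 0.05, against 18.8% of all tested genes. With so few genes, 0 cannot be told from these shares. The lowest p among the 6 was that of Acbd3, a Golgi and mitochondrial adaptor gene, at a difference of 0.11 (adjusted p = 0.336). Of 13 tested SREBP-2 targets and sterol sensing genes, which include the enzymes of cholesterol synthesis, 1 fell and 0 rose (7.69%, against 6.67% of all tested genes). It was Sc5d, a late enzyme of cholesterol synthesis, at -0.40 (SE 0.084, adjusted p = 0.0521), and dropping control replicate 1, control replicate 2 or knockdown replicate 3 ended its call (adjusted p = 0.161 to 0.205), as did no filter (0.116) and the low-variance filter (0.209). The median of the list was -0.015.

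Stress genes of the unfolded protein response gave 3 rises and 1 fall among 20 tested genes (20%, against 6.67% of all tested genes), with a median of 0.020. With the replicate block, which called 17.9% of all tested genes, there were 5 rises and 4 falls. Those added by the block were rises of Atf3 (0.34) and Chac1 (0.20) and falls of Creld2 (-0.28), Eif2ak3 (-0.28), the gene of the stress sensor PERK, and the chaperone gene Hsp90b1 (-0.18). The rises in the fit without the block were Ppp1r15a (0.53, SE 0.073, limma adjusted p = 0.0175), a phosphatase subunit that restores translation, Trib3 (0.41, SE 0.056, adjusted p = 0.0178), a pseudokinase, and Ddit3 (0.30, SE 0.056, adjusted p = 0.0387), which codes for the transcription factor CHOP. Sdf2l1, an endoplasmic reticulum chaperone partner, fell by 0.41 (SE 0.083, adjusted p = 0.0452) and was chosen after its value was seen, while the chaperone gene Hspa5 differed by -0.0043. Ppp1r15a and Trib3 needed control replicate 2 and knockdown replicate 3 for their calls, and Trib3 also lost its call with the low-variance filter (adjusted p = 0.167). Ddit3 needed all 3 control arrays and knockdown replicate 3 (0.104 to 0.182 without one of them) and lost its call with no filter (0.104) and with the low-variance filter (0.432). Sdf2l1 needed control replicates 1 and 2 and knockdown replicate 3 (0.137 to 0.189), and it lost its call under the same 2 filters (0.104 and 0.178).

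**Figure D4:**
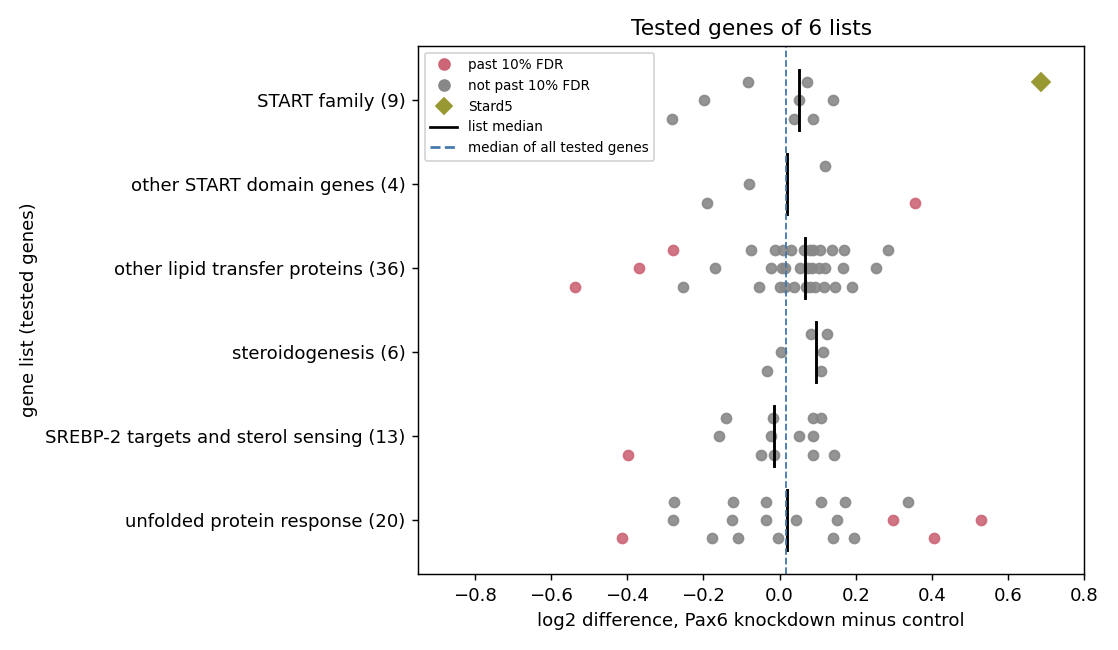
Log2 difference, Pax6 knockdown minus control (horizontal axis), of the tested genes of 6 lists (vertical axis, with the number tested). Coloured points passed 10% FDR, black ticks are list medians and the dashed line is the median of all tested genes (0.017). Stard5 (diamond, 0.69), chosen for its rise, lies beyond every other gene drawn. The list medians lie between -0.015 and 0.095.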

How the data were processed

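Expression was measured on 6 Affymetrix Mouse Gene 1.0 ST arrays, from 200 ng of RNA each. The deposited log2 values are the authors' RMA summaries, background corrected and quantile normalised, and no version of that tool is named in the sources used here. Small signals are compressed by RMA, and a change in total RNA is hidden by quantile normalization. Array medians over 35556 probe sets were 7.49 to 7.59. No 2 arrays were copies (at most 20 identical values). Their number limits the precision.

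Probe sets were named from the platform annotation, checked by gene identifier against RefSeq (21698 of 21789 single-symbol probe sets matched). Only single-symbol probe sets entered, the brightest on average standing for each gene. Genes above each array's median on at least 3 arrays were tested, knockdown against control, with limma 3.58.1 in R 4.3.3 (lmFit, eBayes, two-sided, Benjamini-Hochberg over all tested genes, 10% FDR). The procedure was tested on simulated data, drawn with independent noise per gene and array and so without shared variation between replicate numbers. The replicates are labelled biological.

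The members, lists and motifs were chosen with earlier results of these data known, and CCAAT and GC boxes after the promoters were read. The text names all members, the other START domain genes, up to 3 called genes per list with the lowest adjusted p (or the 1 with the lowest p), 3 neighbours each side of Stard5 and the 5 nearest patterns. Genes named beyond this rule are Sdf2l1, Hspa5, the cell type markers and those called only with the replicate block.

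Replicate numbers are shared between the groups. Deviations from group means correlated at 0.57, 0.32 and 0.23 within numbers 1, 2 and 3 over 11424 genes, which meets the rule for pairs (each over 0.1), on the data and not on a stated batch. The reported fit has no block, and blocking on these numbers is an alternative. Control replicate 3 with knockdown replicate 2 gave 0.18. One further gene list is not reported here. The alternatives changed the filter, probe set choice, normalization, array weights, variance prior, block and arrays.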

Additional observations from a re-analysis of the deposited data

How the results depend on the processing

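The log2 difference of Stard5 ranged from 0.61 to 0.73 over the 15 alternatives. The filters, block, probe set choice and variance prior cannot change it. Leaving out an array cannot move it by more than the spread between arrays, so the range is a description and not a test. The count of all tested genes past 10% FDR, 762 in the reported fit, was 245 with no filter on low values, 389 with the filter at the 25th percentile, 127 with the filter on low variance, 1383 after a second quantile normalization, 4239 with array weights and 2042 with the replicate block. With each array left out it ranged from 51 to 1285. Of the other members, 0 passed in the reported fit, 1 with the replicate block (Stard3) and 2 with array weights (Stard3 and Stard7), a fit whose weights did not fully converge. Differences near 0 changed sign. Over the fits that left out an array, Stard4 ranged from -0.045 to 0.12, Stard6 from -0.16 to 0.45, Stard9 from -0.12 to 0.12 and Hspa5 from -0.015 to 0.0076. Hspa5 was 0.00013 after array centring, and Stard9 was -0.063 with array weights. Stard3, Stard7, Stard10, Stard13 and Star kept their direction under every alternative run. The cause of these changes was not tested. Signal near the array median limits Star, Stard6, Stard8 and Stard9.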
